A study of Arabidopsis thaliana with 8 samples.

Results

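Endosperm in which no inherited copy of NRPD1 worked was compared with endosperm in which only the maternally inherited copies worked, for small RNAs (sRNAs) of 22 nt. The comparison took the libraries whose titles name nrpd1-/- (3 libraries) and pat nrpd1+/- (2 libraries, replicates 2 and 3), which are 5 of the 8 samples of the series. nrpd1-/- seeds came from Ler nrpd1-/- mothers pollinated by Col-0 nrpd1-/- fathers, and pat nrpd1+/- seeds from wild-type Ler mothers pollinated by Col-0 nrpd1-/- fathers. All 5 libraries are therefore F1 endosperm of a Ler by Col-0 cross whose father was an nrpd1-/- mutant, dissected at 7 days after pollination. They differ in whether the mother carried functional NRPD1. The mutant allele, nrpd1a-4, arose in Col-0 and was crossed repeatedly into Ler, and the methods speak of Col-0 segments that remain in the Ler mutant. In such segments the groups also differ in the maternal allele, Col-0 in nrpd1-/- and Ler in pat nrpd1+/-, and the effects of the allele and of NRPD1 cannot be told apart there. Seeds were pooled within a replicate, the replicates of a genotype came from crosses between different parent plants, and another pat nrpd1+/- library was discarded by the study for too few reads. The comparison asks which 22-nt sRNAs depend on maternal NRPD1 once the paternal copy is gone. NRPD1 of the mother plant and the copies inherited from it were lost together, so their effects cannot be told apart.

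NRPD1 is the largest subunit of RNA polymerase IV (Pol IV), a plant polymerase that transcribes transposable elements (TEs) and other silenced loci into short transcripts. RDR2 makes these double-stranded, and DICER-LIKE proteins (DCLs) cut them, DCL3 into 24-nt sRNAs that guide DNA methylation and DCL2 into 22-nt sRNAs. DCL2 also makes 22-nt sRNAs from transcripts of RNA polymerase II, copied by RDR6 or folded back on themselves, and a 22-nt miRNA can start the production of secondary siRNAs from the transcript it cuts. Endosperm holds maternal and paternal genomes in unequal dose, and in the Brassicaceae the ovule and young seed are known for a few loci, called siren loci, that give a large part of all Pol IV sRNAs.

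The 22-nt reads in genes numbered 187467 to 265785 per library in nrpd1-/- and 295509 to 765564 in pat nrpd1+/-. In TEs they numbered 34327 to 37093 per library in nrpd1-/- and 390886 to 474589 in pat nrpd1+/-. Counts were set against the reads at 427 mature miRNA entries of the 24-nt gene tables, 19645 to 31761 per library in nrpd1-/- and 13118 to 38607 in pat nrpd1+/-. These entries stand in the 24-nt tables, so the reads at them are of that size class and do not measure miRNAs of other lengths. A level below is therefore a number of 22-nt reads per such miRNA read (totals) or per 1000 of them (single loci), after a TMM correction. pat nrpd1+/- replicate 2 stood apart from replicate 3, since nuclear rRNA genes took 24.8% of its genic 22-nt reads, against 9.65% in replicate 3. In nrpd1-/- these genes took 28.1 to 37.2%. Small RNA libraries do not measure the mRNA of marker genes, so the tissue label was not checked against markers. NRPD1 itself carried 5, 9 and 6 reads of 22 nt in nrpd1-/- and 15 and 6 in pat nrpd1+/-, and such reads do not measure its transcript. The libraries are bulk tissue, so fewer cells that make an sRNA and less sRNA per cell cannot be told apart.

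The total of 22-nt reads in TEs was 1.19, 1.32 and 1.89 reads per miRNA read in nrpd1-/- replicates 1, 2 and 3, against 12.6 and 25.4 in pat nrpd1+/- replicates 2 and 3. The libraries of the groups did not overlap, and the log2 difference was -3.64, or 12.4-fold lower in nrpd1-/-. In genes the totals were 8.89, 8.53 and 10.3 reads per miRNA read in nrpd1-/- and 20.3 and 19.2 in pat nrpd1+/-, a log2 difference of -1.10. Without rRNA and organelle genes, nuclear genes averaged 5.08 ± 0.743 reads per miRNA read in nrpd1-/- (SD, n = 3), against 14.8 ± 1.95 in pat nrpd1+/- (SD, n = 2). The exact 2-sided permutation test over libraries gave p = 0.1 for each of these totals, which is the smallest value that 3 against 2 libraries can give.

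The pat nrpd1+/- libraries differed more between themselves in TE reads than in genic reads when set against miRNA reads. Set against the 22-nt reads of the tasiRNA (TAS) genes of the same library, TE reads numbered 1.87, 1.53 and 1.63 per TAS read in nrpd1-/- and 12.8 and 16.6 in pat nrpd1+/-. On this scale the groups were 8.74-fold apart in TE reads. Genic reads numbered 13.9, 9.89 and 8.90 per TAS read in nrpd1-/- and 20.7 and 12.6 in pat nrpd1+/-, so that the groups overlapped (log2 difference -0.59, exact permutation p = 0.3).

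The ratio between the groups was larger for 24-nt and smaller for 21-nt TE reads, and these differences between size classes were not tested. TE reads of 24 nt averaged 9.45 ± 0.947 per miRNA read in nrpd1-/- (SD, n = 3), against 212 ± 30.9 in pat nrpd1+/- (SD, n = 2), 22.4-fold lower in nrpd1-/-. TE reads of 21 nt averaged 3.58 ± 1.01 in nrpd1-/- and 24.6 ± 10.6 in pat nrpd1+/-, 6.73-fold lower. The 22-nt class made up 9.71, 9.24 and 11.2% of the 21-, 22- and 24-nt TE reads in nrpd1-/-, against 5.71 and 8.71% in pat nrpd1+/-. The groups did not overlap in this share, with an exact permutation p = 0.1, again the smallest possible.

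**Figure D1:**
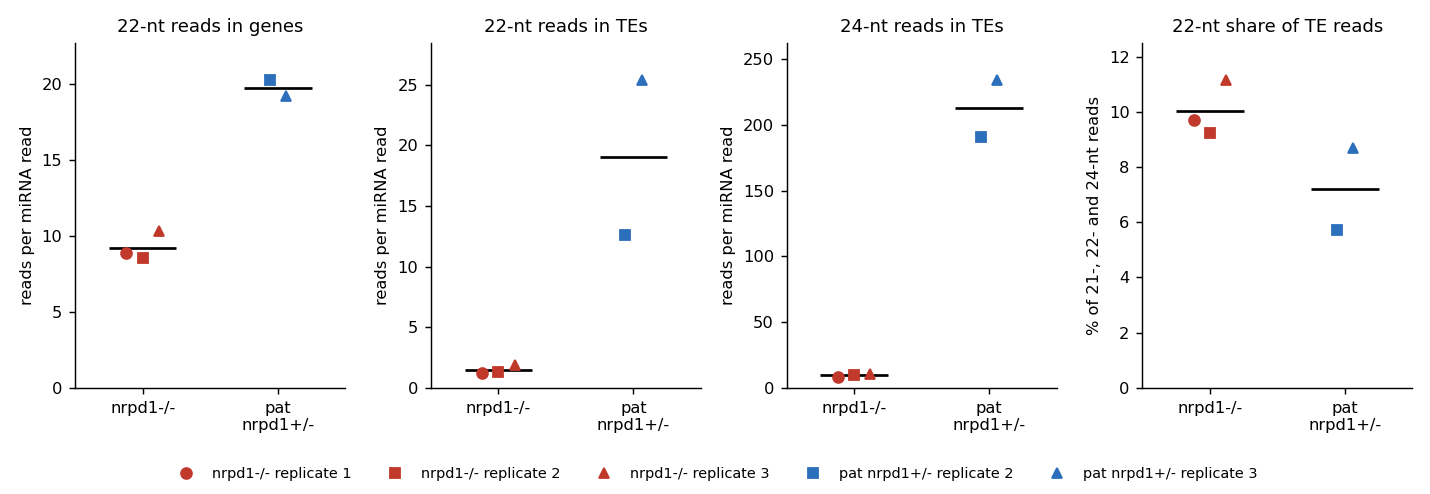
Level of 22-nt reads in genes and TEs and of 24-nt reads in TEs (reads per miRNA read, vertical axes from 0) and the 22-nt share of TE reads (%), with 1 point per library and a line at the group mean. The nrpd1-/- libraries lie at 1.19 to 1.89 reads per miRNA read for 22-nt TE reads, below the pat nrpd1+/- libraries at 12.6 and 25.4, and at 9.24 to 11.2% for the 22-nt share, above 5.71 and 8.71%.

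Of 27104 annotated insertions, 6120 had enough reads to test, and 5868 of them were lower in nrpd1-/- by the edgeR quasi-likelihood test (Benjamini-Hochberg adjusted p up to 0.05 and a change of 2-fold or more), which is 95.9% of those tested. Another 4 insertions were higher (0.0654%), and 248 passed in neither direction. The number of higher insertions was 2 without nrpd1-/- replicate 1, 5 without replicate 2 and 2 without replicate 3. Of the 4 above, these held 1, 2 and 0, so they were largely other insertions. The higher calls also changed when a pat nrpd1+/- library was left out, which leaves 1 library in that group. With TMM over genic 22-nt reads as the scale 89 insertions were higher. The filter on low counts admitted many insertions through their pat nrpd1+/- reads alone, and without it 54.7% of the 20180 insertions with a read were lower. The nrpd1-/- libraries all lay below the pat nrpd1+/- libraries at 96.4% of tested insertions and all above them at 0.719%. The median log2 fold change over the tested insertions was -5.87, or -5.25 when insertions without a read in nrpd1-/- were set to 3 reads over the group. Of the insertions that were lower, 1367 (23.3%) had no read in any nrpd1-/- library.

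The reads that were left sat in few places. The 5868 lower insertions held 18.8 to 23.4% of the 22-nt TE reads of each nrpd1-/- library, against 83.0 and 84.8% in pat nrpd1+/-. The 248 insertions without a call held 67.5 to 72.7% of the TE reads in nrpd1-/- and 3.77 to 4.94% in pat nrpd1+/-. In reads per miRNA read these 248 insertions summed to 1.04 ± 0.286 in nrpd1-/- (SD, n = 3), against 0.790 ± 0.239 in pat nrpd1+/- (SD, n = 2). Both sets were formed by the call on these same reads, so their shares and sums are not separate evidence of a loss. As few as 39 to 47 insertions gave 50% of the TE reads of an nrpd1-/- library, against 868 and 1176 in the pat nrpd1+/- libraries.

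**Figure D2:**
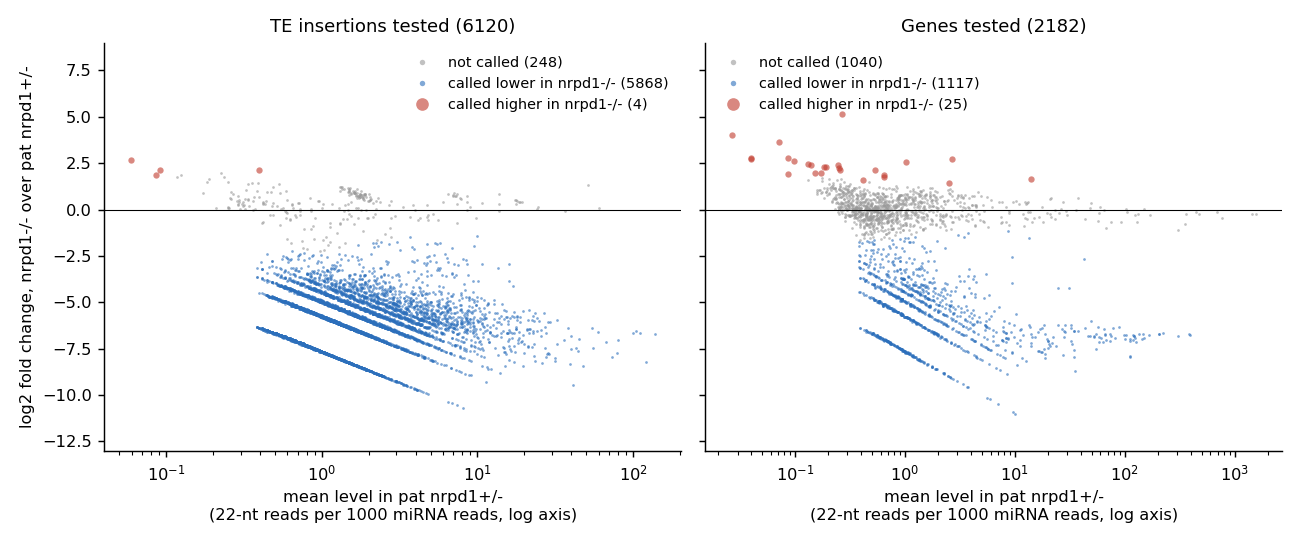
Log2 fold change of 22-nt reads (nrpd1-/- over pat nrpd1+/-, vertical axis) against the mean level in pat nrpd1+/- (reads per 1000 miRNA reads, log axis) for each tested TE insertion and gene, coloured by call. Nearly all TE insertions lie below 0, about a median of -5.87, with 248 grey points near 0, while genes split into 1117 lower and 1040 without a call. The diagonal bands are loci with no or few reads in nrpd1-/-, whose fitted fold change depends on the level in pat nrpd1+/-.

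Every TE class followed the same direction in its summed reads, and the classes differed in how much was left. Harbinger DNA transposons kept the smallest part, with 0.00660 ± 0.00256 reads per miRNA read in nrpd1-/- (SD, n = 3), against 0.706 ± 0.350 in pat nrpd1+/- (SD, n = 2), which left 0.934%. All 146 tested Harbinger insertions were lower. The same held for all 283 hAT insertions, of which 2.52% of the reads were left, and for all 36 Tc1/mariner and Pogo insertions, of which 2.45% were left. En/Spm elements had 331 of 334 insertions lower and LINE elements 377 of 379, with 1.62% and 2.31% of their reads left. Copia retrotransposons had 373 of 379 lower, with 3.22% left. The shares of lower insertions in these classes lie near the 95.9% of all tested insertions and set no class apart. Many insertions were admitted to the test through their pat nrpd1+/- reads alone.

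Helitrons, rolling-circle DNA transposons, summed to 0.261 ± 0.0796 reads per miRNA read in nrpd1-/- and 4.62 ± 2.13 in pat nrpd1+/-, and 1524 of 1545 tested insertions were lower. Gypsy retrotransposons, which fill the pericentromeres, summed to 0.437 ± 0.109 in nrpd1-/- and 4.27 ± 1.77 in pat nrpd1+/-, with 1580 of 1636 lower. SINE elements kept 12.4% of their reads, with 68 of 74 insertions lower. Mutator-like elements as a whole kept 14.1%, at 0.621 ± 0.195 in nrpd1-/- and 4.41 ± 2.13 in pat nrpd1+/-, and 918 of 1075 tested insertions were lower, 85.4% against 95.9% of all. Of the 248 insertions without a call, 154 belonged to this class, and 144 of those to a single family, ATDNA12T3_2. Without that family, left out after the values were seen, Mutator-like elements kept 2.57% of their reads, and 864 of 874 tested insertions were lower. Gypsy elements as a whole kept 10.3%, and 4.19% without the families ATGP2N and ATGP6, with 1579 of 1599 lower.

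**Figure D3:**
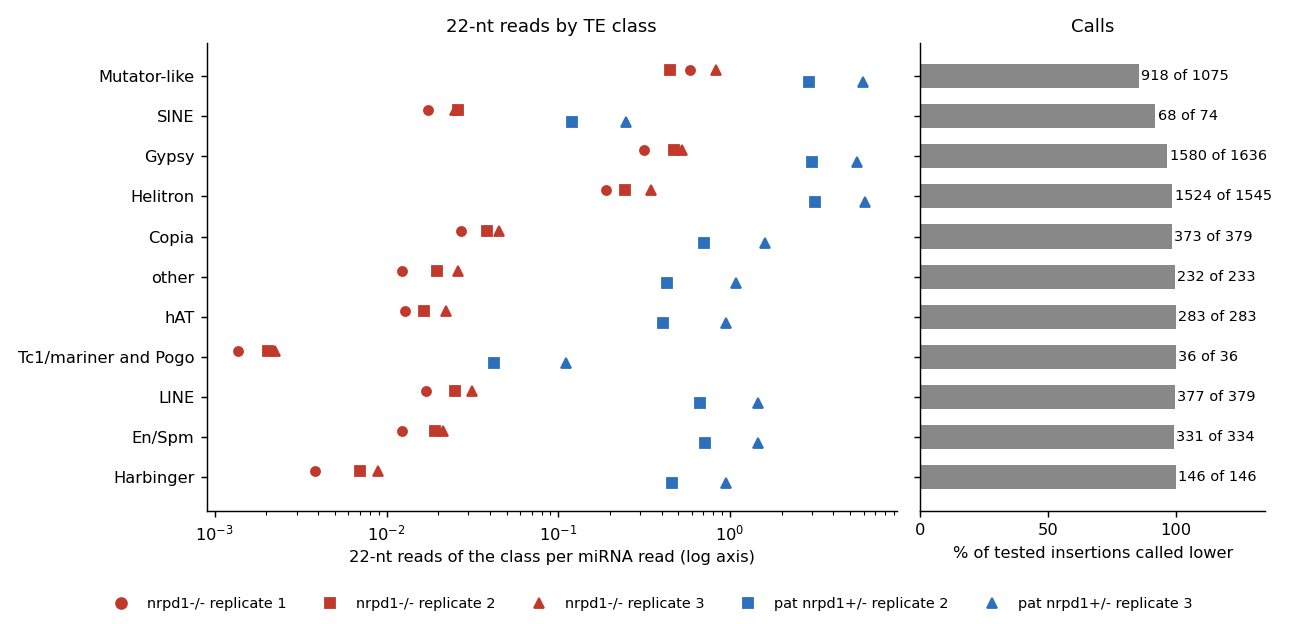
Summed 22-nt reads of each TE class per miRNA read (log axis, left, 1 point per library) and the share of its tested insertions called lower in nrpd1-/- (%, bars from 0, right). In each of the 11 classes the nrpd1-/- points lie left of the pat nrpd1+/- points, with 14.1% left in Mutator-like elements, which becomes 2.57% without the family ATDNA12T3_2, and 12.4% left in SINE elements.

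Of insertions of 100 bases or more, each length class was lower at 95.5 to 98.8%, beside 95.9% of all tested insertions. Among tested insertions of 100 to 199 bases 96.9% were lower, and among those of at least 5000 bases 98.8%, with median log2 fold changes of -5.86 and -5.85. Of the 258 tested insertions under 100 bases, 138 (53.5%) were lower, and without ATDNA12T3_2 it was 136 of 138 (98.6%).

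The insertions with the most 22-nt reads in pat nrpd1+/- that fell belonged to a few neighbourhoods. Highest was AT1TE45735, an ATHILA4D_LTR insertion at chr1:13928743-13935988, with 1.64, 1.85 and 0.38 reads per 1000 miRNA reads in nrpd1-/- and 128 and 150 in pat nrpd1+/- (log2 fold change -6.72 ± 0.914 SE, edgeR adjusted p = 4.6e-12). AT1TE45750 (chr1:13931786-13934802), an ATHILA4A insertion, lies within it, so that reads there can count for both. AT1TE45720 and AT1TE45780, also ATHILA4A, flank it at chr1:13925069-13928742 and chr1:13937844-13939631. These 3 had log2 fold changes of -6.66, -6.57 and -7.01. All 4 overlap annotated pseudogenes (AT1G36775, AT1G36770 and AT1G36790). ATHILA elements are Gypsy-type retrotransposons of the pericentromere.

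A pair of VANDAL8 insertions, Mutator-like elements, lay side by side on chromosome 3, both overlapping the pseudogene AT3G43730. AT3TE63215 (chr3:15634917-15639169) had 0.23, 0.46 and 0.55 reads per 1000 miRNA reads in nrpd1-/- and 84.6 and 158 in pat nrpd1+/-, with a log2 fold change of -8.20 ± 0.967 (SE). AT3TE63205 (chr3:15633328-15634270) had a log2 fold change of -7.96. All of these insertions had nrpd1-/- libraries under 2 reads and pat nrpd1+/- libraries over 50 reads per 1000 miRNA reads, with no overlap.

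AT2TE21295, a VANDAL3 insertion of 22996 bases at chr2:5190752-5213747, had 43.2 reads per 1000 miRNA reads in pat nrpd1+/- replicate 2 and 114 in replicate 3, and 0.23 to 0.60 in nrpd1-/- (log2 fold change -7.74, and -6.90 without pat nrpd1+/- replicate 3). The other insertions named by level were Helitrons. AT4TE09825 (HELITRONY3, chr4:2072130-2075641), AT2TE52215 (ATREP10D, chr2:11993118-11993984) and AT2TE09885 (ATREP11, chr2:2153889-2157853) had log2 fold changes of -6.68, -7.17 and -6.60. Their 24-nt reads moved with the 22-nt reads. AT4TE09825, for example, had 118, 169 and 70 reads of 24 nt in nrpd1-/- and 38563 and 14831 in pat nrpd1+/-. The 5 families with the most tested insertions included ATHILA2 (211 of 211 lower), ATREP3 (189 of 192), HELITRONY3 (182 of 182) and ATHILA4A (157 of 157), with 1.49 to 2.35% of their reads left. These counts stand beside 95.9% lower of all tested insertions.

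The remaining family of these 5, ATDNA12T3_2, did not follow. It is grouped here with Mutator-like elements as a TE family. The short copies printed below read like 5S rRNA, whose genes lie in tandem arrays in Arabidopsis, so they may be rRNA gene units and not TEs. No annotation of nuclear 5S rRNA genes was used here, and this was not tested. Of its 201 tested insertions, 54 were lower, 3 were higher and 144 had no call, and the median log2 fold change was 0.50 against -5.87 over all tested insertions. Its reads summed to 510, 348 and 705 per 1000 miRNA reads in nrpd1-/- and 358 and 619 in pat nrpd1+/-, so the groups overlapped. It held 35.5% ± 8.37 of all 22-nt TE reads in nrpd1-/- (SD, n = 3), against 2.64% ± 0.293 in pat nrpd1+/- (SD, n = 2). Its insertions that were not lower were short, 118 of 147 with 51 to 82 bases, and 88 of them lay on chromosome 5 between 11184835 and 12869272, with a median of 501 bases between the starts of neighbours. Another 47 lay on chromosome 3 between 13593108 and 14185811.

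The 3 insertions of this family that were higher are shown because they carry a stretch in common, printed in capitals, which no lower insertion among those tested held. AT5TE45305 lies at chr5:12811544-12811607 on the plus strand, AT3TE57040 at chr3:13870135-13870198 and AT3TE56795 at chr3:13840714-13840784, both on the minus strand (TAIR10 coordinates, sequence from RefSeq TAIR10.1).
AT5TE45305: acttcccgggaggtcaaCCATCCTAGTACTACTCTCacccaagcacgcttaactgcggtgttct
AT3TE57040: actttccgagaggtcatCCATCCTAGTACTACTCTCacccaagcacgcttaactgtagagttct
AT3TE56795: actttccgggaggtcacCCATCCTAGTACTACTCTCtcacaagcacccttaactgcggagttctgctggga

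The 19 bases in capitals occurred, on either strand, in 76 of the 201 tested insertions of the family and in none of the 5919 tested insertions of other families. None of the 76 was lower, 73 had no call and 3 were higher. They summed to 266, 178 and 366 reads per 1000 miRNA reads in nrpd1-/- and 132 and 224 in pat nrpd1+/-. The stretch and this count were chosen after the values were seen, and the stretch may be of 5S rRNA and not a feature of a TE. Of the 125 family members without it, 54 were lower. Copies this alike share reads, and the authors kept 1 best alignment for each read, so the level of a single copy is uncertain. The 3 higher copies carried few reads, with 14, 6 and 9 at AT5TE45305 in nrpd1-/- and 2 and 1 in pat nrpd1+/- (adjusted p = 0.00944, edgeR), and for each of them leaving out a pat nrpd1+/- library ended the call. That was replicate 2 for AT5TE45305 (adjusted p = 0.15) and AT3TE57040 (0.349), and replicate 3 for AT3TE56795 (0.152).

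ATGP2N, a Gypsy family, had no call at any of its 31 tested insertions, beside 95.9% lower of all tested insertions. Its reads summed to 75.3, 77.2 and 123 per 1000 miRNA reads in nrpd1-/- and 74.2 and 111 in pat nrpd1+/-. The copy with the most reads, AT3TE70530 at chr3:17393358-17395137, had 21.4, 23.01 and 37.8 reads per 1000 miRNA reads in nrpd1-/- and 17.7 and 31.6 in pat nrpd1+/- (log2 fold change 0.15 ± 0.706 SE). Of this insertion with 500 bases on each side, 831 bases lay in words of 20 bases whose reverse complement also occurred there. Its longest exact inverted arms were 131 bases long, at chr3:17393015-17393145 and chr3:17394447-17394577, with 1301 bases between them. The first arm, which lies before the annotated start of the insertion, is shown on the plus strand.
AT3TE70530 first arm: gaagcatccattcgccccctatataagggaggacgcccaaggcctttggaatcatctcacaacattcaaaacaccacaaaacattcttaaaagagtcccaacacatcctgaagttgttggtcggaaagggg

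At least 100 bases of such inverted words were found at 20 of 248 insertions without a call (8.06%) and at 305 of 5868 lower insertions (5.2%). The 2 sets are unlike in length, with medians of 208 and 1389.5 bases, and 144 of the 248 are ATDNA12T3_2 copies. The difference was not tested. Among the named insertions, AT2TE45640, without a call, had 154 such bases. AT1TE45735 and AT1TE45750, both lower, had 184 and 124.

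The single insertion with the most 22-nt reads in nrpd1-/- was AT3TE63870, an ATGP6 insertion at chr3:15797694-15798633. It had 86.5, 157 and 141 reads per 1000 miRNA reads in nrpd1-/- and 67.1 and 35.8 in pat nrpd1+/-, so that all nrpd1-/- libraries lay above both pat nrpd1+/- libraries. The log2 fold change was 1.31 ± 0.872 (SE) with an adjusted p = 0.137 (edgeR), and scaling by TMM over genic 22-nt reads gave 1.59 with an adjusted p = 0.0209. It also passed without nrpd1-/- replicate 1 (adjusted p = 0.0319) and without nrpd1-/- replicate 3 (adjusted p = 0.0426). ATGP6 as a family summed to 114, 216 and 194 reads per 1000 miRNA reads in nrpd1-/- and 98.4 and 75.2 in pat nrpd1+/-. Of its 6 tested insertions 1 was lower and 0 were higher. It held 12.1% of the TE reads in nrpd1-/- and 0.539% in pat nrpd1+/-, shares of a TE total that was itself far lower in nrpd1-/-. AT2TE45640, an ATREP10D Helitron at chr2:10644602-10646056, had 49.5, 60.0 and 83.4 reads per 1000 miRNA reads in nrpd1-/- and 52.7 and 68.1 in pat nrpd1+/-. It also kept its 24-nt reads, 53407, 51335 and 39408 in nrpd1-/- and 56130 and 22350 in pat nrpd1+/-, although 116 of 122 tested ATREP10D insertions were lower. AT1TE69400, a TAT1_ATH insertion at chr1:21018771-21019194, had 20.7, 43.1 and 38.5 reads per 1000 miRNA reads in nrpd1-/- and 32.6 and 40.6 in pat nrpd1+/-. AT3TE41045, an ATREP3 Helitron at chr3:9857882-9859946, was the only higher insertion outside ATDNA12T3_2. It had 42, 42 and 38 reads in nrpd1-/- and 10 and 8 in pat nrpd1+/- (adjusted p = 0.0341), and the call was lost without pat nrpd1+/- replicate 2 (adjusted p = 0.0785) and without nrpd1-/- replicate 3 (adjusted p = 0.0529).

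**Figure D4:**
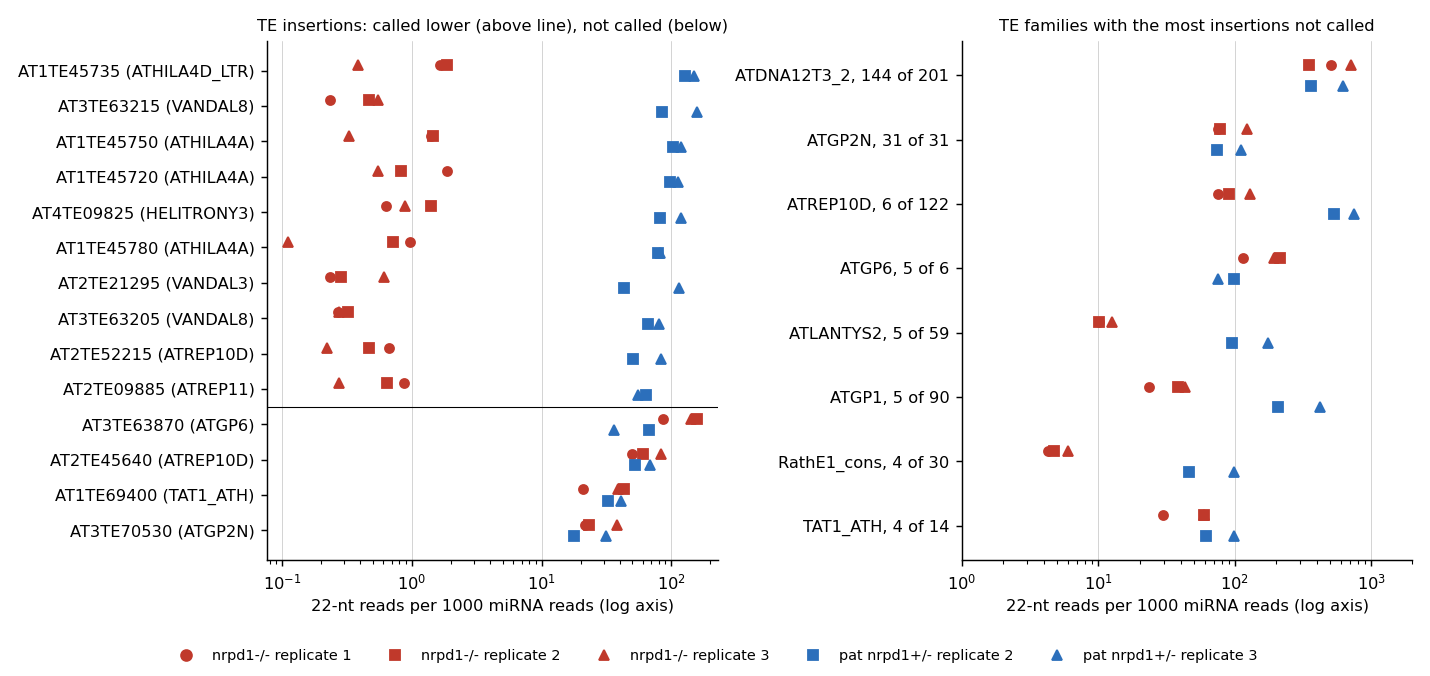
22-nt reads per 1000 miRNA reads (log axes, 1 point per library) for the 10 named lower insertions and the 4 named without a call (left) and for the 8 families with the most insertions without a call (right, with their number among those tested). The 10 lower insertions show nrpd1-/- libraries under 2 and pat nrpd1+/- libraries above 40, while ATDNA12T3_2, ATGP2N and 3 of the 4 insertions without a call overlap between groups, and the summed reads of ATREP10D, ATLANTYS2, ATGP1 and RathE1_cons do not.

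The lower insertions also changed in the make-up of what was left. In them 22-nt reads were 13.2, 15.1 and 20.1% of the 22- and 24-nt reads in nrpd1-/-, against 6.28 and 9.81% in pat nrpd1+/-. At the 248 insertions without a call this share was 11.7, 10.99 and 13.9% in nrpd1-/- and 8.12 and 11.8% in pat nrpd1+/-, and the groups overlapped. Their 24-nt reads summed to 7.42 ± 1.01 per miRNA read in nrpd1-/- (SD, n = 3), against 7.08 ± 0.0840 in pat nrpd1+/- (SD, n = 2).

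Genes divided more evenly than TEs. Of 33433 genes, 2182 could be tested, of which 1117 (51.2%) were lower in nrpd1-/-, 25 (1.15%) were higher and 1040 had no call by the same test. The number of higher genes was 39 without nrpd1-/- replicate 1, 14 without nrpd1-/- replicate 2, 40 without pat nrpd1+/- replicate 2 and 73 without pat nrpd1+/- replicate 3, and 117 with TMM over genic 22-nt reads as the scale. The filter on low counts admitted many genes through their pat nrpd1+/- reads alone, and without it 7.82% of the 26681 genes with a read were lower. The nrpd1-/- libraries all lay below the pat nrpd1+/- libraries at 57.4% of tested genes and all above them at 8.3%. The median log2 fold change was -1.97, with quartiles of -5.62 and 0.07. The 1117 lower genes summed to 0.125 ± 0.0347 reads per miRNA read in nrpd1-/- (SD, n = 3), against 8.39 ± 0.848 in pat nrpd1+/- (SD, n = 2). The 1040 genes without a call summed to 8.19 ± 0.945 in nrpd1-/- and 9.47 ± 2.00 in pat nrpd1+/-. The calls were made on these same reads, so the sums describe the sets and are not separate evidence of a loss.

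Gene classes fell on different sides of this division. Transcribed pseudogenes were lower at 167 of 188 tested, long noncoding RNA genes at 84 of 110 and protein-coding genes at 842 of 1349. Of all tested genes 51.2% were lower and 1.15% higher. Structural RNA genes showed few calls, with 4 of 255 tRNA genes lower and 4 higher, 2 of 109 snoRNA genes lower and none higher, and none of 21 snRNA genes lower and 1 higher. Tested genes annotated as other noncoding RNA, which include the TAS genes, had 15 of 29 lower (51.7%), near the share over all tested genes. Of 116 tested genes without a RefSeq match, 3 were lower and 1 was higher. An annotated TE overlapped 161 of 1114 lower genes (14.5%), 35 of 928 genes without a call (3.77%) and 9.49% of all tested nuclear genes with a position.

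The lower genes with the most 22-nt reads formed a group of like levels and like falls. AT4G29654, a protein-coding gene at chr4:14531601-14532454, had 6.72, 3.38 and 0.49 reads per 1000 miRNA reads in nrpd1-/- and 357 and 419 in pat nrpd1+/- (log2 fold change -6.76 ± 0.815 SE, adjusted p = 1.4e-15, edgeR). AT1G49260 (chr1:18225870-18226967) had 7.39, 3.10 and 0.44 reads per 1000 miRNA reads in nrpd1-/- and 372 and 393 in pat nrpd1+/-. AT1G13760 (chr1:4720243-4721342) had 5.45, 2.21 and 0.38 in nrpd1-/- and 287 and 320 in pat nrpd1+/-. In each of them replicate 3 was the lowest of the nrpd1-/- libraries and replicate 1 the highest, and every one of the 10 genes named by level had this order.

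AT3G15960, AT2G21235, AT3G21170 and AT5G22860 are protein-coding and had log2 fold changes of -6.68 to -6.99. AT3G26500 encodes PIRL2, a leucine-rich repeat protein, and lies on chromosome 3 next to AT3G05025, a long noncoding RNA gene at chr3:9707053-9707354. PIRL2 had 3.71, 1.78 and 0.27 reads per 1000 miRNA reads in nrpd1-/- and 220 and 187 in pat nrpd1+/-. AT3G05025 had 88, 40 and 0 reads in nrpd1-/- and 6344 and 2491 in pat nrpd1+/-. The 10 genes kept 0.769 to 0.964% of their level in pat nrpd1+/-, and nrpd1-/- replicates 1 and 3 weighed on this. The log2 fold changes were -6.99 to -6.68 with all libraries, -7.88 to -7.24 without nrpd1-/- replicate 1 and -6.57 to -6.10 without nrpd1-/- replicate 3. Only PIRL2 among them overlapped an annotated TE, AT3TE40455 of the ATMUNX1 family. AT1G13760 and AT3G05025 were listed for this comparison as siren-like because earlier results of these libraries had shown them rich in 24-nt sRNAs, so their fall is not independent evidence. Their 24-nt reads were 614, 263 and 16 at AT1G13760 in nrpd1-/- and 43199 and 12284 in pat nrpd1+/-.

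AT3G08370, a long noncoding RNA gene of 283 bases at chr3:20030910-20031192, had 3.81, 1.82 and 0.22 reads per 1000 miRNA reads in nrpd1-/- and 194 and 215 in pat nrpd1+/- (log2 fold change -6.69 ± 0.761 SE). Its whole sequence is shown, on the plus strand, as the most compact of these loci (RefSeq TAIR10.1).
AT3G08370: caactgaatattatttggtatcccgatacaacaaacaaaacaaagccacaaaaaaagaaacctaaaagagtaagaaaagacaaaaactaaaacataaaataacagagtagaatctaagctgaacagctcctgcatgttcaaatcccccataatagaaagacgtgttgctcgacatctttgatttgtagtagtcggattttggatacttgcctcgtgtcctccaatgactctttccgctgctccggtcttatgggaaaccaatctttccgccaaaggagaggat

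**Figure D5:**
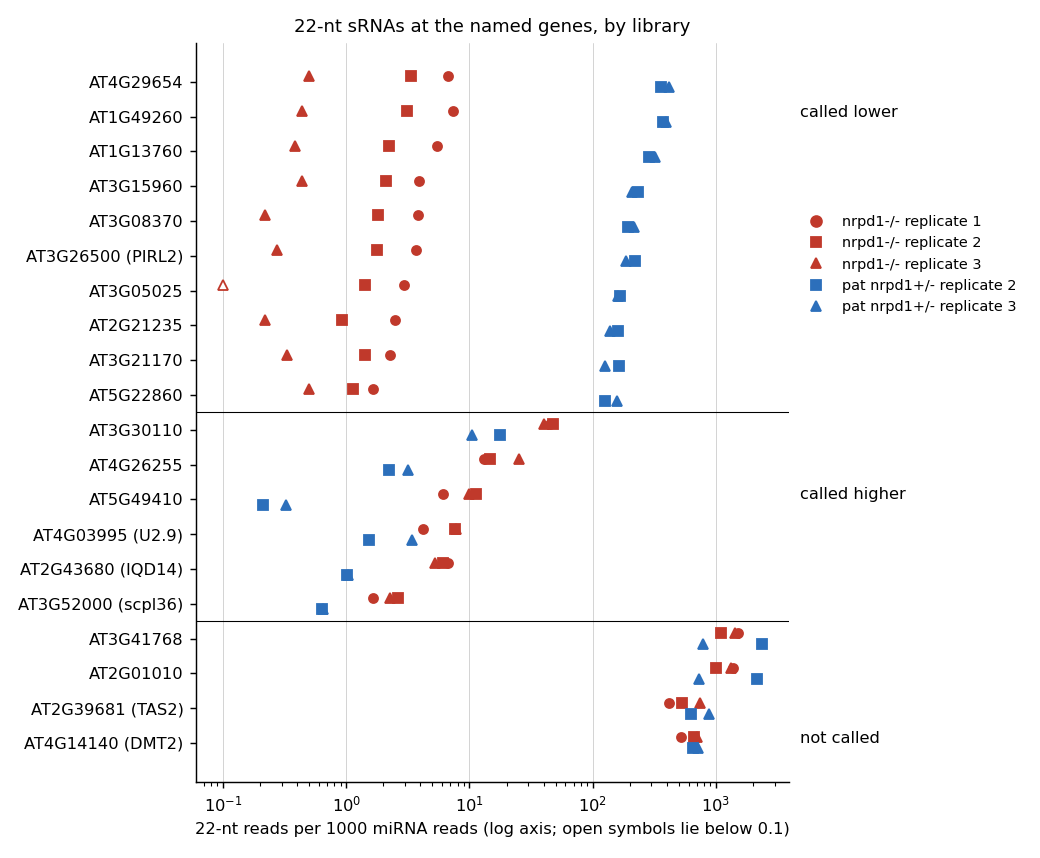
22-nt reads per 1000 miRNA reads (log axis) at the genes named by level, 1 point per library; an open symbol marks AT3G05025 in nrpd1-/- replicate 3, which had no read. The 10 lower genes have nrpd1-/- libraries at 7.39 or less and pat nrpd1+/- libraries at 125 or more, the 6 higher genes lie the other way round, and the 4 genes without a call overlap.

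The TAS genes, whose transcripts are cut by a miRNA and turned into trans-acting siRNAs without Pol IV, had no call at any of the 6 that could be tested of 8. Over all tested genes the shares were 51.2% lower and 1.15% higher. TAS2 (AT2G39681, chr2:16539384-16540417) had 417, 527 and 745 reads per 1000 miRNA reads in nrpd1-/- and 632 and 884 in pat nrpd1+/-, and the groups overlapped (log2 fold change -0.43 ± 0.780 SE, edgeR adjusted p = 0.726). TAS1C had a log2 fold change of -0.77 ± 0.717 and TAS1A of -0.30 ± 0.662. The whole list summed to 639, 863 and 1157 reads per 1000 miRNA reads in nrpd1-/- and 982 and 1526 in pat nrpd1+/-, with a median log2 fold change of -0.44 against -1.97 over all tested genes. TAS3, with few 22-nt reads, had 2.77 ± 0.414 in nrpd1-/- (SD, n = 3), against 1.67 ± 0.117 in pat nrpd1+/- (SD, n = 2), with an adjusted p = 0.294. Scaling by TMM over genic 22-nt reads gave it a log2 fold change of 1.11 with an adjusted p = 0.0339 (edgeR). That scale raised the log2 fold changes of genes by a median of 0.41. Apart from it and the scale from TAS reads, no alternative gave TAS3 a call.

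miR173, a 22-nt miRNA, starts siRNA production from TAS1 and TAS2 transcripts, and its mature sequence is shown with its seed (bases 2 to 8) in capitals. Below it stand the best-matching windows of 22 bases in TAS2 (chr2:16539991-16540012), TAS1C (chr2:16537890-16537911) and TAS1B (chr1:18549660-18549681), all on the minus strand, with bases that are complementary to miR173 in capitals (RefSeq TAIR10.1).
miR173-5p: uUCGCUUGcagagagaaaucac
TAS2 window: GTGATTTtTCTCTcCAAGCGAA
TAS1C window: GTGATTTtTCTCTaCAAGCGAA
TAS1B window: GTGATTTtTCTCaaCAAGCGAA

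TAS1A, TAS1C and TAS2 matched miR173 at 20 of 22 bases and TAS1B at 19, while the best windows of TAS3, TAS3B, TAS3C and TAS4, which other miRNAs cut, matched at 12 to 14. TAS1B, with 3 mismatches, had 10.9 ± 2.48 reads per 1000 miRNA reads in nrpd1-/- (SD, n = 3), against 14.97 ± 1.501 in pat nrpd1+/- (SD, n = 2). The miR173-5p entry had 64, 59 and 24 reads in nrpd1-/- and 82 and 41 in pat nrpd1+/-. These reads are of the 24-nt class and do not measure the 22-nt miRNA.

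The pentatricopeptide repeat (PPR) genes of a chromosome 1 cluster, which encode organelle RNA-binding proteins and are targets of TAS siRNAs, were measured next. Of 13 genes, 12 were tested, 2 were lower, none was higher and 10 had no call, beside 51.2% lower of all tested genes, and their median log2 fold change was -0.45 beside -1.97 over all. AT1G63070 was lower, with 149, 199 and 147 reads in nrpd1-/- and 1464 and 716 in pat nrpd1+/- (log2 fold change -2.67 ± 0.572 SE, adjusted p = 7.5e-06). RPF2 (AT1G62670), which takes part in maturing a mitochondrial transcript, had 3.86 ± 1.17 reads per 1000 miRNA reads in nrpd1-/- and 8.68 ± 0.959 in pat nrpd1+/- (adjusted p = 0.0311). The call on RPF2 was lost under genic scaling (adjusted p = 0.122) and without any 1 of 4 libraries, nrpd1-/- replicates 1 and 2 and both pat nrpd1+/- libraries (adjusted p = 0.0624 to 0.129). Genes of this cluster are similar in sequence and can share reads. The cluster, at chr1:23176930-23509484, surrounds NRPD1 (chr1:23354685-23362589), where Col-0 sequence may remain in the nrpd1-/- mother, so the maternal allele and the loss of NRPD1 cannot be told apart for these genes. Within 1000000 bases on each side of NRPD1, 10 of 46 tested genes and 23 of 23 tested TE insertions were lower, and elsewhere 1107 of 2136 genes and 5845 of 6097 insertions.

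At AT4G14140 (DMT2), annotated as a DNA methyltransferase gene (chr4:8145998-8152131), 22-nt reads were abundant in both groups. It had 522, 664 and 705 reads per 1000 miRNA reads in nrpd1-/- and 648 and 721 in pat nrpd1+/- (log2 fold change -0.12 ± 0.786 SE). Its 24-nt reads, 3205, 3000 and 2056 in nrpd1-/- and 3491 and 1441 in pat nrpd1+/-, were fewer than its 22-nt reads, 15616, 18645 and 12841 in nrpd1-/- and 24441 and 11096 in pat nrpd1+/-. The remaining genes of highest level without a call were AT3G41768 and AT2G01010, 18S rRNA genes that are near-identical copies and share reads. AT3G41768 had 1499, 1096 and 1418 reads per 1000 miRNA reads in nrpd1-/- and 2349 and 780 in pat nrpd1+/-, with the pat nrpd1+/- libraries on either side of all nrpd1-/- libraries.

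Among genes of the silencing pathways themselves few could be tested. Of 14 genes of RNA-directed DNA methylation only NRPD1 was, without a call, and the list held 20 to 35 reads in each nrpd1-/- library and 37 to 79 in each pat nrpd1+/- library. Of 9 genes of miRNA and post-transcriptional silencing 3 were tested, all without a call, beside 51.2% lower of all tested genes. AGO1, the main miRNA effector and itself a target of miR168, had 6.95 ± 1.65 reads per 1000 miRNA reads in nrpd1-/- (SD, n = 3), against 4.25 ± 1.07 in pat nrpd1+/- (SD, n = 2). Its log2 fold change of 0.71 (edgeR adjusted p = 0.263) became 1.123 with an adjusted p = 0.0303 under genic scaling, which raised genes in general. Apart from this scale and the one from TAS reads, no alternative gave AGO1 a call. The auxin receptor genes AFB2 and AFB3, targets of miR393, had no call, and TIR1 and AFB1 had too few reads to test. NIA1, NIA2, SMXL4 and SMXL5, known for 22-nt siRNAs made by DCL2 when other decay pathways fail, held 2 to 7 reads in all in each nrpd1-/- library and 3 and 15 in the pat nrpd1+/- libraries, too few to test.

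Of 13 imprinted genes, whose expression in endosperm depends on the parent of origin, 2 had enough reads to test, AGL36 and HDG8. Both passed the filter through their pat nrpd1+/- reads alone and so had to be lower, beside 51.2% lower of all tested genes, and they are given as reads only. AGL36, a MADS-box gene, had 1, 1 and 0 reads in nrpd1-/- and 162 and 173 in pat nrpd1+/-. HDG8, a homeodomain gene, had 0, 1 and 0 reads in nrpd1-/- and 107 and 31 in pat nrpd1+/-. At the other 11, which include MEA, FIS2, FWA and PHE1, no library held more than 12 reads, which was too few to test.

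The 25 higher genes were of low level and summed to 0.103 ± 0.0125 reads per miRNA read in nrpd1-/- (SD, n = 3), against 0.0250 ± 0.00191 in pat nrpd1+/- (SD, n = 2). Their 22-nt reads were 73.5 to 76.5% of the 22- and 24-nt reads in nrpd1-/- and 42.0 and 44.7% in pat nrpd1+/-. The genes were chosen for high 22-nt reads in nrpd1-/-, so both this share and the sum above follow from the call. Their 24-nt reads, on which no call was made, summed to 0.0342 per miRNA read in nrpd1-/- and 0.0326 in pat nrpd1+/-. AT5G49410, a protein-coding gene at chr5:20032287-20034020, had 181, 315 and 182 reads in nrpd1-/- and 8 and 5 in pat nrpd1+/- (log2 fold change 5.13 ± 0.678 SE, adjusted p = 3.8e-13). AT4G26255, a noncoding RNA gene, had 13.1, 14.7 and 25.1 reads per 1000 miRNA reads in nrpd1-/- and 2.23 and 3.18 in pat nrpd1+/-. AT2G43680 (IQD14), of a family of calmodulin-binding proteins, had 6.65, 6.06 and 5.22 in nrpd1-/- and 1.01 and 1.04 in pat nrpd1+/-. None of the 24 higher nuclear genes with a position overlapped an annotated TE, beside 9.49% of all tested ones, and this difference was not tested.

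The other higher genes named by level depended on single libraries. AT3G30110, a transcribed pseudogene with 44.9, 47.3 and 40.4 reads per 1000 miRNA reads in nrpd1-/- and 17.8 and 10.4 in pat nrpd1+/-, had an adjusted p = 0.0168, against 0.112 without nrpd1-/- replicate 2, 0.0535 without pat nrpd1+/- replicate 2 and 0.248 without pat nrpd1+/- replicate 3. The U2.9 snRNA gene, for a spliceosome RNA, and scpl36, for a serine carboxypeptidase-like protein, had adjusted p = 0.0137 and 0.00891, and both calls were lost without nrpd1-/- replicate 2 (0.0539 for each). The call on U2.9 was also lost without pat nrpd1+/- replicate 2 (0.306), and with the miRNA scale taken without TMM factors (0.0633) or with DESeq2 size factors (0.0575).

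The miRNA entries that set the scale were not all alike in the 2 groups. The 5 with the most reads were miR5639-3p (11.8% of miRNA reads), miR836 (10.6%), miR168a-3p (9.69%), miR163 (6.35%) and miR168a-5p (5.62%). In the reads of the 24-nt tables, miR836 had 117, 127 and 171 reads per 1000 miRNA reads in nrpd1-/- and 65.8 and 78.9 in pat nrpd1+/-, and miR163 had 53.0, 45.4 and 61.5 in nrpd1-/- and 82.9 and 80.1 in pat nrpd1+/-. Of 113 entries with at least 100 reads, 27 were at least 4-fold lower in nrpd1-/-, and together they held 13.2% of the miRNA reads of pat nrpd1+/-. The 3 of these with the most reads are shown with the seed in capitals, and miR5635b and miR5635d have the same sequence.
miR5653: uGGGUUGAguugaguugaguuggc
miR5635b: uGUUAAGGaguguuaacggug
miR5635d: uGUUAAGGaguguuaacggug

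miR5653 had 2, 3 and 2 reads in nrpd1-/- and 630 and 408 in pat nrpd1+/-, and miR5635b had 5, 10 and 7 in nrpd1-/- and 500 and 264 in pat nrpd1+/-. Part of the scale thus moved with the groups in the same direction as the TEs, and its share in the levels above was not tested beyond the other scalings.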

How the data were processed

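sRNAs of dissected endosperm were sequenced by the study. The authors trimmed reads for quality, cut adapters (cutadapt), dropped PCR duplicates using random adapter bases, and aligned with Bowtie 1.2.2 to TAIR10 Col-0 joined with a Ler pseudo-genome, 1 best alignment per read, before binning by length. The deposited tables hold raw counts per gene and TE insertion for each library, and these were used. Not used were the authors' own fold changes and p-values, and 185 other per-library columns (wild type, and normalized or rlog values). Reads in no gene (55.3 to 74.1% of 22-nt reads in the gene files) and ambiguous reads (1.03 to 3.05%) stayed out of all sums. The 23-nt class was left out because the columns of 1 file carry the names of another cross.

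Genes and TEs were tested apart with edgeR 4.0.16 (R 4.3.3; filterByExpr, glmQLFit, glmQLFTest) without covariates. Library size was the sum of reads at mature miRNA entries of the 24-nt gene files times TMM factors over those entries. All 427 entries matched a mature miRNA position in RefSeq TAIR10.1. Calls needed an adjusted p (Benjamini-Hochberg) up to 0.05 and a change of 2-fold or more. SE is the log2 fold change over the root of F. Scripts were tested on simulated data. Counts of replicates differed beyond sampling noise, so none was merged.

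Named loci were, among calls whose groups do not overlap, the 10 lower genes and 10 lower TEs of highest level in pat nrpd1+/- and the 6 higher genes and 4 higher TEs of highest level in nrpd1-/-, then the 4 genes and 4 TEs without a call of highest level, NRPD1, the gene lists, the TE classes, the 5 families with most tested insertions and the 5 miRNA entries with most reads. Members and lists were chosen with earlier results of these data known. Symbols and positions came from RefSeq (33148 of 33433 genes matched). Alternatives were other scalings (no TMM factor, DESeq2 size factors, TMM over genic 22-nt reads and, chosen after seeing the data, reads at TAS genes), the DESeq2 1.42.0 test, no filter on low counts, no minimum fold, all 3 mutant genotypes in the fit, a replicate block, and each library left out.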

Additional observations from a re-analysis of the deposited data

How the results depend on the processing

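The loss at TEs and at genes kept its direction under the alternatives run, and the number of lower loci stayed within 1.5 times except without a filter on low counts (2086 genes, 7.82% of 26681, and 11045 TEs, 54.7% of 20180). Leaving out each library in turn gave 968 to 1133 lower genes and 5324 to 6052 lower TEs. The number of higher loci depended on the scale. Against 25 genes and 4 TEs it was 117 genes and 89 TEs with TMM over genic 22-nt reads, 122 and 102 with TAS reads, 14 genes and 0 TEs with the DESeq2 test (5879 TEs had an unadjusted p under 0.05 there, and edgeR called 4), 55 and 32 with all 3 genotypes in the fit, 1 TE with the sum of miRNA reads and 1 with DESeq2 size factors, 2 TEs without a filter, and 14 to 73 genes and 2 to 29 TEs with a library left out. Over the genes tested in both fits, genic scaling moved log2 fold changes by a median of 0.41 and TAS scaling by 0.51, against -0.17 without TMM factors and -0.29 with DESeq2 size factors. The log2 difference in the genic total was -1.26 without TMM factors, -1.40 with DESeq2 size factors and -0.59 with TAS reads, and the cause was not tested. Replicate numbers 2 and 3 are shared by the groups, but nothing in the labels says that they pair the libraries, and deviations of same-numbered libraries correlated at 0.14 over genes and 0.08 over TEs. With a replicate block 942 genes and 5151 TEs were lower and 46 genes and 13 TEs higher. For the block, AT3TE63870 passed as higher (1.6, adjusted p = 0.0129) and RPF2 no longer passed (-0.93, adjusted p = 0.0352), and it changed no other call on a named locus that it could test. Leaving out pat nrpd1+/- replicate 3 moved TE fold changes by a median of 0.59 and leaving out replicate 2 by -0.44. Depth limits low loci, since 26681 genes and 20180 TEs had a read but 2182 and 6120 could be tested.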
